A study of Homo sapiens with 6 samples.

Results

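The CXC chemokines are small secreted proteins that direct the migration of leukocytes, and 8 of their genes were examined together with the receptor gene CXCR4. The ligand genes were IL8 (now named CXCL8), CXCL1, CXCL2, CXCL3, CXCL5, CXCL6, CXCL10 and CXCL12. All 9 genes have a row in the deposited table of 20061 rows and were found there by name. The list was chosen by gene family but holds only part of it, and other CXC genes are described separately below. It was chosen with the fold changes and q-values of this same comparison already known. The values below therefore describe these genes and are not an independent test of them. RNA came from HEYA8, an established human ovarian carcinoma cell line, in which every sample carried a lentiviral short hairpin RNA (shRNA) under puromycin selection. The shETS1 group (3 samples) expressed an shRNA against the transcription factor ETS1, and the shLuciferase group (3 samples) expressed an shRNA against luciferase, which human cells lack, as the negative control. Separate cultures, transductions or hairpins within a group are not stated in the labels.

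Ligands of the IL8 type carry the amino acids Glu-Leu-Arg before the CXC motif. They act on the receptors CXCR1 and CXCR2, attract neutrophils and promote the growth of blood vessels. CXCL10 is induced by interferon and attracts T cells through CXCR3, and CXCL12 is made by stromal cells and is the ligand of CXCR4. In epithelial tumour cells the genes of the IL8 type are classical targets of NF-kappaB downstream of interleukin 1 and TNF, and their mRNAs are typically short-lived.

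The authors deposited 1 FPKM value (fragments relative to transcript length and depth) per gene and group, which combines the 3 samples of each group. No value per sample was used and no spread between samples could be computed. A gene was called changed at q of at most 0.05 in the authors' deposited table. By that rule 97 of 11952 tested genes (0.812%) were called in either direction, and 65 (0.544%) were called higher in shETS1. The targeted gene ETS1 was at 17.9 FPKM in shETS1 and 41.4 FPKM in shLuciferase, a log2 fold change of -1.21 (q = 0.00964 in the authors' deposited table). Sequencing depth is unknown, since FPKM carries no read number. In bulk RNA, more cells expressing a gene and more RNA per cell cannot be told apart.

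Of the 9 genes, 5 were tested by the authors (IL8, CXCL1, CXCL2, CXCL3 and CXCR4), and the other 4 were too low to be tested. The 4 tested ligands were all called higher in shETS1, none was called lower, and CXCR4 was not called. These 5 genes had a median log2 fold change of 1.00, beside 0.02 over all tested genes. Only genes with enough reads could be tested, so neither the count nor the median speaks for the whole list, and neither is evidence about it.

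IL8, the main neutrophil attractant of the family, had the largest fold change among the 5 tested genes. It stood at 23.3 FPKM in shETS1 and 6.77 FPKM in shLuciferase, a 3.44-fold difference (log2 fold change 1.78). Its p-value of 5e-05 is the smallest in the authors' deposited table, and its q-value there is 0.00964. Other genes share both values, CXCL1, ETS1 and IL1B among them, so the p-value does not set IL8 apart. By log2 fold change IL8 ranked 4 of 10676 tested genes with a mean of at least 1 FPKM, counted from the largest rise. By level it ranked 3353 of the 11952 tested genes in shETS1 and 6541 in shLuciferase.

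CXCL1, the melanoma growth-stimulating factor, was the most abundant of the ligands in both groups. It rose to 214 FPKM in shETS1, against 107 FPKM in shLuciferase (2.00-fold, log2 fold change 1.00, q = 0.00964 in the authors' deposited table). Its absolute gain of 107 FPKM was larger than that of any other member, and by level it ranked 441 of the tested genes in shETS1 and 946 in shLuciferase. CXCL2, a close relative also known as macrophage inflammatory protein 2-alpha, rose to 23.3 FPKM in shETS1, against 11.6 FPKM in shLuciferase (2.01-fold, q = 0.0306 in the authors' deposited table). CXCL3, the least abundant of this trio, rose to 13.3 FPKM in shETS1, against 6.76 FPKM in shLuciferase (1.96-fold). Its q of 0.0445 in the authors' deposited table is the closest to the threshold.

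The log2 fold changes of CXCL1, CXCL2 and CXCL3 lay within 0.04 of each other, whereas that of IL8 was 0.77 above the highest of them. The difference between IL8 and the other ligands could not be tested, because no spread between samples is given. CXCL1 exceeded CXCL2 by 9.19-fold in shETS1 and 9.22-fold in shLuciferase, and CXCL2 exceeded CXCL3 by 1.76-fold in shETS1 and 1.72-fold in shLuciferase. The proportions within the trio were thus nearly the same in both groups on the FPKM scale. The ratio of CXCL1 to IL8 was 9.21 in shETS1 and 15.8 in shLuciferase. Summed over the 4 ligands, the level was 274 FPKM in shETS1 and 132 FPKM in shLuciferase, 2.08-fold. CXCL1 made up 78.2% of that sum in shETS1 and 81.0% in shLuciferase, and IL8 8.49% in shETS1 and 5.13% in shLuciferase.

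The order of levels therefore differed between the groups below CXCL1. In shETS1 it ran CXCL1, CXCL2 and IL8 (equal to 3 digits), CXCL3 and CXCR4. In shLuciferase it ran CXCL1, CXCL2, CXCR4, IL8 and CXCL3, with IL8 and CXCL3 0.01 FPKM apart. Whether neighbours in these orders differ beyond the spread between samples cannot be told from group values.

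**Figure D1:**
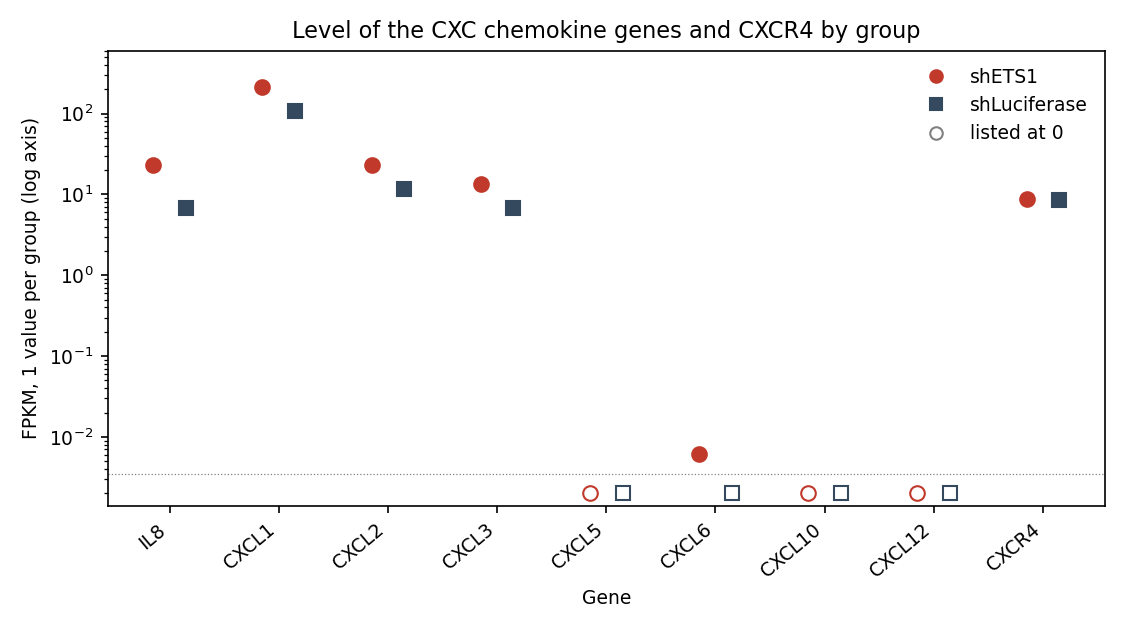
FPKM (vertical log axis) of each gene in shETS1 (red circles) and shLuciferase (dark squares), 1 authors' value per group and no error bars because no sample values are given. Open symbols below the dotted line mark values listed at 0; the 4 called ligands lie between 13.3 and 214 FPKM in shETS1 and between 6.76 and 107 FPKM in shLuciferase.

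The remaining ligands were absent or nearly so from the table's values. CXCL5, another neutrophil attractant, was listed at 0 in both groups. CXCL6, its nearest relative, was at 0.00616 FPKM in shETS1 and listed at 0 in shLuciferase. CXCL10 and CXCL12 were each listed at 0 in both groups. None of these 4 genes was tested, and no fold is given for them. The deposited locus of CXCL10 also spans CXCL11 and ART3, and that of CXCL12 overlaps another row, DKFZp547J0510. The loci of the 5 tested members overlap no other row.

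CXCR4, the receptor for CXCL12 that is known for its part in metastatic homing, was at 8.84 FPKM in shETS1 and 8.65 FPKM in shLuciferase. Its log2 fold change was 0.03 (q = 1.00 in the authors' deposited table), so no difference was detected, which does not show that there was none. The cells thus had transcripts of this receptor while its ligand was listed at 0. The receptors of the IL8 type ligands were not seen at such levels: CXCR1 was at 0.0162 FPKM in shETS1 and listed at 0 in shLuciferase, and CXCR2 was listed at 0 in both groups. CXCR3, the receptor for CXCL10, was at 0.00860 FPKM in shETS1 and 0.0123 FPKM in shLuciferase. CXCR7, a scavenging receptor that also binds CXCL12, was at 0.0363 FPKM in shETS1 and 0.0530 FPKM in shLuciferase.

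**Figure D2:**
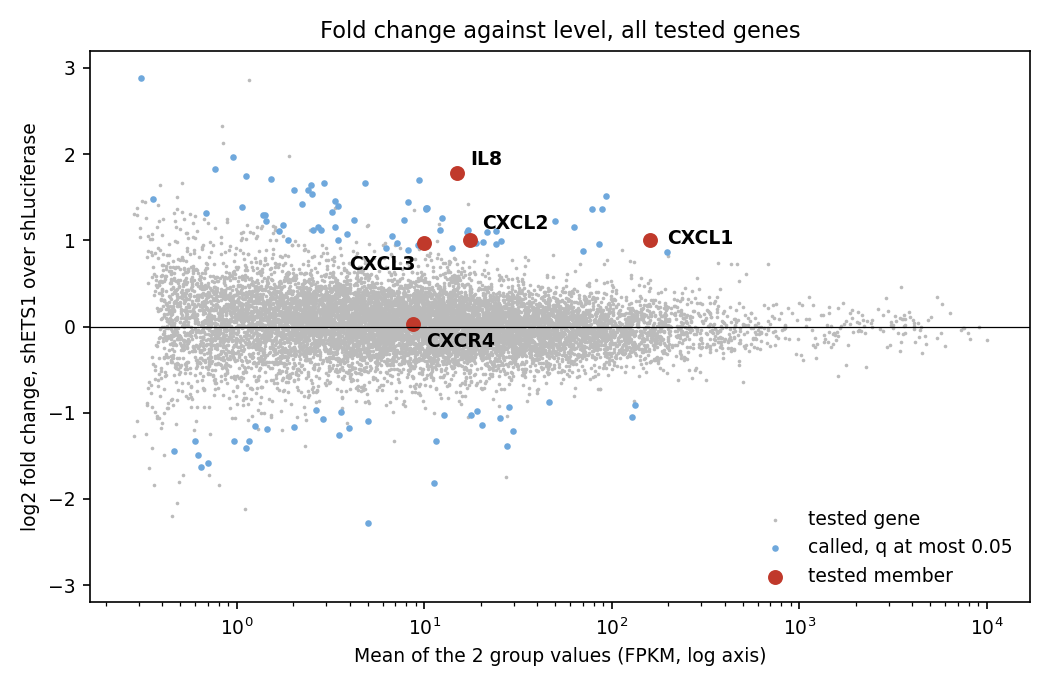
On the vertical axis, log2 fold change of shETS1 over shLuciferase against the mean of the group values (horizontal log axis) for the tested genes, with called genes in blue and the 5 tested members in red; 3 genes outside the axes and 1 without a finite fold are not drawn. IL8 lies at 1.78, CXCL1, CXCL2 and CXCL3 between 0.97 and 1.01, and CXCR4 at 0.03.

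Of the rest of the chemokine system, a list of 51 further genes was examined, made up of CXC, CC, XC and CX3C ligands and their receptors. All 51 have a row, but only 3 were tested by the authors' Cuffdiff run and none was called; 0 had a p-value under 0.05 in the authors' deposited table, and no other tool could be run. Of the 51, 23 were listed at 0 in both groups and 11 in 1 group only. The tested genes were CCL5, which draws T cells and monocytes, at 0.537 FPKM in shETS1 and 0.402 FPKM in shLuciferase, CCL20, the ligand of CCR6, at 0.291 FPKM in shETS1 and 0.468 FPKM in shLuciferase, and CCR10. CCR10, a receptor for skin and mucosal chemokines, was the only 1 of the 51 to reach 1 FPKM, with 1.59 FPKM in shETS1 and 2.44 FPKM in shLuciferase and a p-value of 0.0803 in the authors' deposited table. The highest level among the untested genes was 0.249 FPKM, that of CCL3 in shETS1. CCL2, which draws monocytes, was listed at 0 in both groups. The table has 11 more rows with chemokine ligand or receptor names that this list leaves out, looked up after values were seen, of which 1 was tested and none called. That row, CCRL2, a receptor-like gene of the family, was at 1.89 FPKM in shETS1 and 2.41 FPKM in shLuciferase (p-value 0.297 in the authors' deposited table). No ligand of these 2 sets reached 1 FPKM in either group.

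Apart from CXCL10, CXCL12 and CXCR4, the members lie together on chromosome 4. The stretch from IL8 to CXCL2 (chr4:74606223-74964997, hg19, 1-based) is 359 kb long and holds 9 rows of the table, of which 6 are members and the other 3 are the platelet chemokine genes PF4, PF4V1 and PPBP. IL8 lies at chr4:74606223-74609433, CXCL6 at chr4:74702273-74704477 and CXCL1 at chr4:74735109-74736955. CXCL5 lies at chr4:74861359-74864416, CXCL3 at chr4:74902312-74904490 and CXCL2 at chr4:74962754-74964997. The risen genes were interspersed with silent ones. CXCL6 and PF4V1 separate IL8 from CXCL1, and PF4, PPBP and CXCL5 separate CXCL1 from CXCL3. PF4 and PF4V1 were listed at 0 in both groups, and PPBP was at 0.0580 FPKM in shETS1 and 0.0648 FPKM in shLuciferase.

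Within 250 kb beyond either end of the stretch, MTHFD2L, a mitochondrial folate enzyme gene next to CXCL2, was the only tested row. It was at 2.67 FPKM in shETS1 and 2.15 FPKM in shLuciferase and was not called (p-value 0.305 in the authors' deposited table). EPGN, an ERBB ligand gene within that distance, was listed at 0 in shETS1 and was at 0.0410 FPKM in shLuciferase. Beyond that distance, the ERBB ligand genes EREG and AREG were also low. EREG was at 0.0376 FPKM in shETS1 and 0.0173 FPKM in shLuciferase, and AREG at 0.0309 FPKM in shETS1 and 0.00688 FPKM in shLuciferase. CXCL10 lies 1.97 Mb farther along the chromosome, and none of the 6 tested rows within 250 kb of its locus was called. Among these were NUP54, a nuclear pore gene, at 15.2 FPKM in shETS1 and 13.8 FPKM in shLuciferase, and SDAD1 at 14.7 FPKM in shETS1 and 14.8 FPKM in shLuciferase. The other 4, USO1, NAAA, SCARB2 and STBD1, had log2 fold changes between -0.13 and 0.41. Over chromosome 4 as a whole, without the members, 408 genes were tested, 4 were called higher and 1 lower, and the median log2 fold change was 0.12. The nearest of those 5 called genes, PRDM8, lies 6499 kb from IL8.

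**Figure D3:**
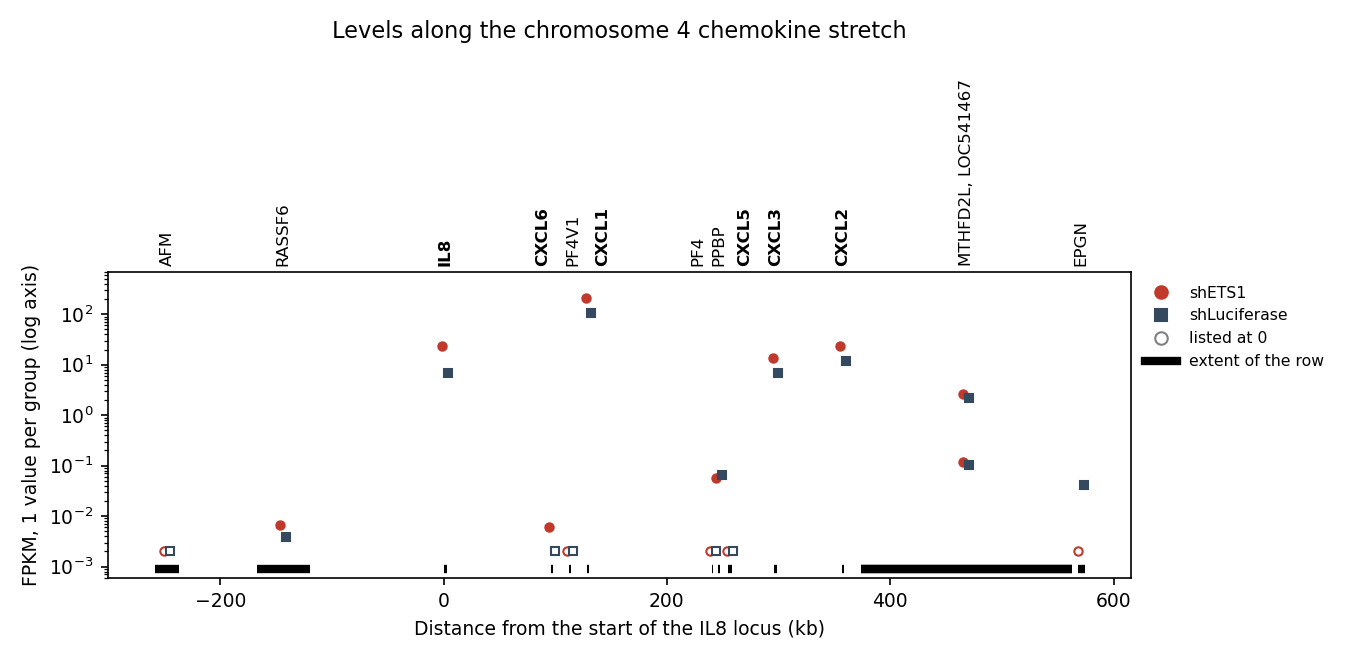
FPKM (vertical log axis) of each row along the chromosome 4 stretch and 250 kb on either side, placed by distance in kb from the start of IL8, for shETS1 (red circles) and shLuciferase (dark squares), with open symbols for values listed at 0 and black bars for the extent of each row. Members are in bold; IL8, CXCL1, CXCL3 and CXCL2 stand above 6 FPKM in both groups, whereas the genes between them are at or near 0.

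The promoter sequences of the 6 members of this stretch show what the expressed and the silent genes have in common. The 150 bases before each transcription start are given 5' to 3' on the gene's own strand, from RefSeq on GRCh38.p14, a later build than the hg19 of the table. Capitals mark the letters GGAATTTCC, the core of a binding site for NF-kappaB, searched on both strands.
IL8, chr4:73740419-73740568, plus strand: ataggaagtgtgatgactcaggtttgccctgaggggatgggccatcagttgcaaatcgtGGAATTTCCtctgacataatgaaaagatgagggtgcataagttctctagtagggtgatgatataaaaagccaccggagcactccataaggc
CXCL1, chr4:73869243-73869392, plus strand: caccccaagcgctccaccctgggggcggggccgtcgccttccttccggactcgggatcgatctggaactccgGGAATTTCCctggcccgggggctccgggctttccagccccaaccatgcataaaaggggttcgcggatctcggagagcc
CXCL2, chr4:74099196-74099345, minus strand: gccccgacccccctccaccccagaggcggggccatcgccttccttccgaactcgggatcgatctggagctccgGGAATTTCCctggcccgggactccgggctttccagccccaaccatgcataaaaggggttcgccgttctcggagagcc
CXCL3, chr4:74038690-74038839, minus strand: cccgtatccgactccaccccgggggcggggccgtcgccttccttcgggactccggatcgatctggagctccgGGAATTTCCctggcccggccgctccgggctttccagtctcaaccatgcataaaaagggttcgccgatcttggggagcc
CXCL5, chr4:73998678-73998827, minus strand: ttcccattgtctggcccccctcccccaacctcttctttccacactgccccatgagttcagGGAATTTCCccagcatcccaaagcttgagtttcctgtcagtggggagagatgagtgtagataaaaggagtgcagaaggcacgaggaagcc
CXCL6, chr4:73836528-73836677, plus strand: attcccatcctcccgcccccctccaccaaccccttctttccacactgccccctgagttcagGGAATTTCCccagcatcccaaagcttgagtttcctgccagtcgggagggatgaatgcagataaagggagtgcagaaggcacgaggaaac

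All 6 windows hold GGAATTTCC on the gene's own strand. It begins 91 bases before the start in IL8, 78 in CXCL1, 77 in CXCL2, 78 in CXCL3, 90 in CXCL5 and 89 in CXCL6. Over 300-base windows (250 before to 50 after the start), 7 of the 9 members hold it on either strand, CXCL10 included, beside 162 of 35116 RefSeq promoter windows (0.461%). CXCL5, CXCL6 and CXCL10 hold it and yet were at or near 0, so these letters did not separate the expressed ligands from the others. The full kappaB consensus, which overlaps these letters, was found in 6 members (5.91% of all windows). IL8 does not hold the full consensus. CXCL12 has neither in its window, and CXCR4 has neither in any of its 3 windows.

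The printed windows fall into groups of near relatives. CXCL1 and CXCL2 share 88.8% of aligned letters, CXCL1 and CXCL3 88.1%, CXCL2 and CXCL3 86.3%, and CXCL5 and CXCL6 89.4%. Between these groups, CXCL1, CXCL2 and CXCL3 share from 51.2% (CXCL1 with CXCL5) to 55.0% (CXCL2 with CXCL6) with CXCL5 and CXCL6. IL8 shares between 44.0% and 48.0% with each of the other 5. No level for unrelated windows is given, so these lower values do not by themselves show a relation. Matches in near-copies are not independent of each other. The AP-1 letters TGANTCA were found in IL8 alone, 137 bases before its start (7.71% of all windows). The exact letters CCGGAAGT, an extended form of the ETS site, were found in none of the 9 genes (4.14% of all windows). Other extended forms were not searched, so the absence of these letters does not show the absence of an ETS site. The ETS core GGAA, which lies within GGAATTTCC on both strands, was found in 8 of them, but 95.5% of all windows hold it. The C/EBP letters TTGCNNAA were found in CXCL2 alone (10.5% of all windows), and TATAAA in IL8 and CXCR4 (11.5%). Each search took only the letters given, so sites of the same factors in other forms were not counted, in IL8 or elsewhere. These matches are descriptions of letters and show no binding of any factor.

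**Figure D4:**
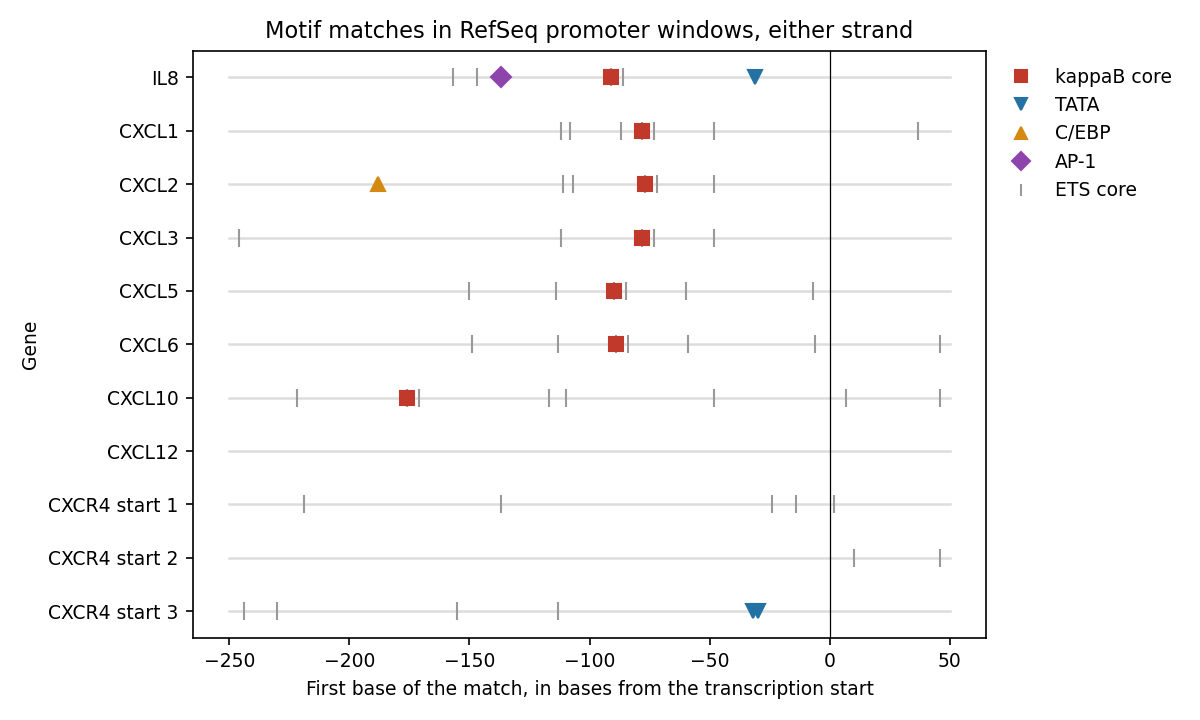
First base of each motif match (horizontal axis, bases from the transcription start) in the 300-base RefSeq windows of the 9 genes, with 3 windows for CXCR4; red squares are GGAATTTCC, diamonds AP-1, upward triangles C/EBP, downward triangles TATAAA and grey ticks GGAA, on either strand. The red squares of the 6 genes of the chromosome 4 stretch line up between 91 and 77 bases before the start.

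The transcripts were compared as well, using the longest protein-coding transcript of each gene in GENCODE 29. AU-rich letters were counted over the whole transcript, its coding part included. The letters ATTTA, which in many cytokine mRNAs mark transcripts for rapid decay, occurred 10 times in IL8 (5.87 per kb) and 5 times in CXCL1 (4.56 per kb). They occurred 10 times in CXCL2 (8.21 per kb) and 7 times in CXCL3 (6.51 per kb). The median of 10399 expressed genes was 1.00 per kb. The longer form TTATTTATT was found in IL8 (1 copy), CXCL1 (3 copies), CXCL2 (5 copies) and CXCL3 (1 copy), and in 9.60% of the expressed genes. CXCL5, CXCL6, CXCL10, CXCL12 and CXCR4 had no copy. ATTTA stood at 4.33 per kb in CXCL5, 3.49 per kb in CXCL6, 1.70 per kb in CXCL10, 1.13 per kb in CXCL12 and 1.06 per kb in CXCR4. These counts were not adjusted for the base composition of the transcripts, which differs between genes.

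CXCL1, CXCL2 and CXCL3 are near-identical in part, which bears on how reads were assigned. In local alignment the transcripts of CXCL1 and CXCL2 shared 88.0% of 1120 columns, those of CXCL2 and CXCL3 73.1% and those of CXCL1 and CXCL3 71.9%. Stretches of 50 bases that also occur in another member made up 5.73% of those in CXCL1, 9.24% in CXCL2 and 5.26% in CXCL3, and none in IL8. The sources used here give neither the read length nor the handling of reads with several matches, so the split of reads within the trio is uncertain. The shares above count exact matches of 50 bases only and set no limit on that uncertainty. Whether shared reads move the fold changes of the trio was not tested.

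The GC content of the transcripts moved with the fold changes of all genes (Spearman rho -0.47 across 10399 expressed genes, which share libraries and are not replicates). The IL8 transcript had a GC content of 33.4%, beside a median of 49.2% over the expressed genes with a value. CXCL1 was at 45.6%, CXCL2 at 46.0%, CXCL3 at 44.7% and CXCR4 at 43.9%. After a trend on GC content was subtracted, the log2 fold change of IL8 was 1.44, that of CXCL1 0.94, CXCL2 0.95 and CXCL3 0.89, and that of CXCR4 was -0.06. IL8 thus remained the member with the largest value under this setting.

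**Figure D5:**
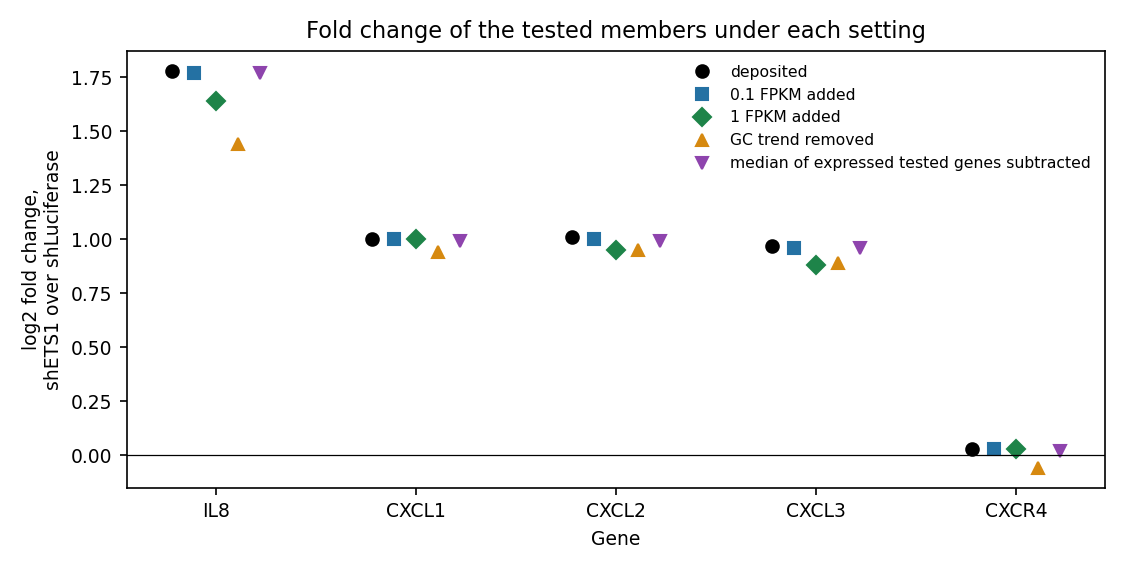
On the vertical axis, log2 fold change of shETS1 over shLuciferase for the 5 tested members as deposited, with 0.1 or 1 FPKM added to both groups, after removal of a GC trend, and after subtraction of the median of expressed genes. IL8 ranges from 1.44 to 1.78 and the other 3 ligands from 0.88 to 1.01, while CXCR4 stays between -0.06 and 0.03.

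Regulators of these genes were looked up by name. IL1B, the secreted interleukin 1 that induces them in many cells, rose to 69.9 FPKM in shETS1, against 29.9 FPKM in shLuciferase (log2 fold change 1.23, q = 0.00964 in the authors' deposited table). IL1A was at 20.2 FPKM in shETS1 and 12.0 FPKM in shLuciferase (q = 0.152 in the authors' deposited table). NFKBIA, the inhibitor that NF-kappaB itself induces, was at 37.9 FPKM in shETS1 and 23.7 FPKM in shLuciferase (q = 0.202 in the authors' deposited table). The NF-kappaB subunit gene RELA was at 52.4 FPKM in shETS1 and 64.2 FPKM in shLuciferase, and NFKB1 at 17.6 FPKM in shETS1 and 18.6 FPKM in shLuciferase, and neither was called. TNF, whose row lies on an alternative haplotype contig, was at 1.06 FPKM in shETS1 and 1.35 FPKM in shLuciferase, and IL6 at 0.517 FPKM in shETS1 and 0.289 FPKM in shLuciferase, neither called. Their part in the levels of the chemokine genes was not tested.

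By the measure of log2 fold change over the 2 group values, the genes outside the list most like IL8 (mean of at least 5 FPKM) were CD82, a tetraspanin, SUMO3, a ubiquitin-like modifier, and GFPT2, an enzyme of hexosamine synthesis. CD82 was at 14.4 FPKM in shETS1 and 4.43 FPKM in shLuciferase (log2 fold change 1.71), SUMO3 at 138 FPKM in shETS1 and 48.5 FPKM in shLuciferase (1.51), and GFPT2 at 12.0 FPKM in shETS1 and 4.42 FPKM in shLuciferase (1.44).

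Markers of other cell types were set beside the chemokine values, because leukocytes, endothelial cells and fibroblasts can also make these ligands. Every sample was labelled as the HEYA8 line, so RNA of such a marker does not by itself show the presence of those cells. The 10 leukocyte markers summed to 1.39 FPKM in shETS1 and 1.40 FPKM in shLuciferase. Most of that came from LYZ, at 0.781 FPKM in shETS1 and 0.672 FPKM in shLuciferase, and CD14. CD14 was at 0.525 FPKM in shETS1 and 0.688 FPKM in shLuciferase, and neither gene was called. Of the 10 markers, 6 (PTPRC, TYROBP, CD3E, S100A8, S100A9 and CSF3R) were listed at 0 in both groups. The 5 endothelial markers with a row summed to 139.6 FPKM in shETS1 and 203 FPKM in shLuciferase, most of it from TIE1, and CDH5 was called lower. The 6 fibroblast markers summed to 10.2 FPKM in shETS1 and 5.99 FPKM in shLuciferase, with COL1A1 called higher and COL3A1 and DCN listed at 0 in both groups. The 7 epithelial and ovarian carcinoma markers summed to 2869 FPKM in shETS1 and 4043 FPKM in shLuciferase, none called. Most of that sum came from the keratin genes KRT8, at 1288 FPKM in shETS1 and 1913 FPKM in shLuciferase, and KRT18, at 1498 FPKM in shETS1 and 2044 FPKM in shLuciferase. The table gives both keratins the same locus, so how their reads were divided is uncertain. PAX8 was at 76.8 FPKM in shETS1 and 79.7 FPKM in shLuciferase, while CDH1 and MUC16 were listed at 0 in shETS1 and stood at 0.00572 and 0.000625 FPKM in shLuciferase. The part of these differences in the chemokine values was not tested.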

How the data were processed

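Polyadenylated RNA was sequenced from 3 shETS1 and 3 shLuciferase samples. TopHat2 2.0.7, Bowtie2 2.0.6, SAMtools 0.1.18, Cufflinks 2.1.1 and hg19 are named in the submitters' processing notes without roles; the annotation and scaling were not found in those notes. Per the labels' protocols no strand-marking step is described. Per the file headers, the columns are those of Cuffdiff: the authors' FPKM per group, the authors' log2 fold change (error text was read as minus infinity), a test statistic (a score, deposited and not used), and p-values and q-values. A Benjamini-Hochberg adjustment over the 11952 tested genes gave back the q-values to within 5.16e-07. The p-values measure whatever spread the authors' samples hold, which may be technical.

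The members, gene lists and motifs were chosen with earlier results of these data known. The AU-rich letters were chosen after values were seen. The named genes are the members, those of the 51 further chemokine genes and of the neighbours that were called or at 1 FPKM or more, ETS1, 7 regulators and 3 genes nearest to IL8 in fold change; other named genes were chosen after their values were seen. The GC trend was a cubic fit over 10399 of 10676 expressed tested genes (97.4%) matched by symbol or older symbol to GENCODE 29. Python 3.11.15 with Biopython 1.88 was used. All 9 members matched a RefSeq promoter (35116 windows). Adjustment and trend code was tested on simulated data. Starts had 1 added so that coordinates count from 1. No test of samples, protein sequence or leave-one-out fit was made here. The alternatives were other q-value thresholds, 2 other adjustments, 2 pseudocounts, GC and median corrections, and a shorter promoter window.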

Additional observations from a re-analysis of the deposited data

How the results depend on the processing

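The number of members called was 4 at a q-value of 0.1 and when p-values were adjusted over the 10676 tested genes with a mean of at least 1 FPKM. It was 2 (IL8 and CXCL1) at a q-value of 0.01, where a stricter threshold was applied. It was also 2 when p-values were adjusted over all 20061 rows with untested rows at 1, where CXCL2 had an adjusted p of 0.0514 and CXCL3 of 0.0747 (Benjamini-Hochberg on the authors' Cuffdiff p-values), because more rows then enter the adjustment. None of the 51 further chemokine genes on the list was called at any of 3 thresholds. All 20 alternative fold changes, taken on the linear scale, stayed within 1.5-fold of the deposited ones. At the levels of these genes, adding 0.1 or 1 FPKM or subtracting a median of 0.02 could move them only a little. The count of 20 therefore says little about stability. The largest shift was that of IL8, from a log2 fold change of 1.78 to 1.44 with the GC trend removed. Only the log2 fold change of CXCR4 changed sign, to -0.06 with the GC trend removed. The shares of promoters with each of 7 motifs also stayed within 1.5-fold when the bases after the start were left out. Leaving out 50 of 300 bases can only lower a share, so this limit was hard to exceed. No paired analysis was possible because the table holds 1 value per group, and for the same reason no replicate could be left out. Depth is unknown, so no detection limit is given for values listed at 0.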

Other observations

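Outside the members, GGAATTTCC was found in the RefSeq promoter windows of 46 expressed tested genes, of which 2 (4.35%) were called higher in shETS1 and none lower. These were ICAM1, a leukocyte adhesion receptor, with a log2 fold change of 1.58, and COL7A1, a collagen chain, with 1.18. The median log2 fold change of the 46 genes was 0.14, and 0.03 after the GC trend was removed. It was 0.02 and -0.01 for 8612 expressed genes counted as without these letters. Of those 8612 genes, 34 (0.395%) were called higher and 17 lower. Fewer expressed genes entered this split than the transcript split below, so 0.395% is not the share over all expressed genes. Over all tested genes, 0.544% were called higher. The difference between 4.35% and 0.395% was not tested.

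The AU-rich letters TTATTTATT occurred in the transcripts of 994 further expressed genes, of which 8 (0.805%) were called higher and 1 lower. Of 9400 genes without the letters, 48 (0.511%) were called higher and 24 lower. The median log2 fold change was 0.09 with the letters and 0.01 without. The median GC content was 43.8% with them and 50.1% without, and with the GC trend removed both medians were -0.01.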
